A study of Mus musculus with 12 samples.

Results

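The genes described here encode the receptors for glutamate, GABA and glycine, the fast transmitters of the central nervous system, and were taken from the count tables of cultured neural stem and progenitor cells (NSPCs) by gene symbol, with no use of their measured values. The symbols selected 52 of the 24525 genes counted. They comprise 4 AMPA, 5 kainate, 2 delta, 7 NMDA and 8 metabotropic glutamate receptor genes, 16 GABA-A and 3 GABA-A rho subunits, 2 GABA-B subunits and 5 glycine receptor subunits. The question was at what level each was expressed in NSPCs, and whether the levels differed between wild-type cells and cells without Ythdf2, a reader protein that binds N6-methyladenosine (m6A) in mRNA.

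NSPCs came from the brain of C57BL/6 mouse embryos at E14.5 and were grown as neurospheres to passage 1 with 20 ng/ml EGF and 10 ng/ml bFGF. There were 3 wild-type and 3 Ythdf2-/- libraries. The Ythdf2-/- embryos carried on both alleles a deletion of the first exon made with a ubiquitously expressed Cre, so the loss was constitutive, and no other agent distinguished the genotypes. Whether same-numbered libraries came from 1 litter, or libraries of 1 genotype from separate embryos, is not given in the labels, so p-values measure the spread between these samples only.

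Ionotropic receptors open an ion channel when they bind transmitter. AMPA, kainate and NMDA receptors are tetramers that admit cations, and GABA-A and glycine receptors are pentamers that pass chloride. Delta receptors share the fold of the ionotropic glutamate receptors, whereas metabotropic glutamate and GABA-B receptors act through G proteins. In progenitors these receptors are known to respond to transmitter present before synapses form.

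m6A is most often found within short sequences of which GGACT is a frequent form. The coding sequences of the receptors are therefore shown around this motif, searched as these letters on the transcript strand of the longest coding sequence of each gene. Of the 52 genes, 49 held it, and among the 30 that passed the filter on low counts 27 did (90%), against 77.9% of 12286 tested genes with a coding sequence. Receptor coding sequences were longer, with a median of 2746 bases for the tested ones against 1452 for all, and held a median of 1.33 against 1.07 motifs per kb. Gabra4 and Gabrg1 were among the 3 with none. m6A itself was not analysed here, and a match is a description of sequence. The 29-base windows below come from GENCODE M21 on GRCm38, the assembly also called mm10. Each is the window nearest the end of the coding sequence that lies within 1 exon, read along the transcript with the motif in capitals. The windows of 3 GABA-A alpha subunits and 2 rho subunits were chosen for their likeness and show the motif within like sequence of related genes. The windows of Gabra6 and Gabrr3 were unlike these, with 10 of 29 bases identical between Gabra6 and Gabra2 and 9 between Gabrr3 and Gabrr2, the 5 of the motif included.
Gabra2 (chr5:70973529-70973557, minus strand): tgccactgccatGGACTggtttatagctg
Gabra3 (chrX:72445288-72445316, minus strand): cgcgacggccatGGACTggttcatagccg
Gabra5 (chr7:57413699-57413727, minus strand): tgccacagccatGGACTggttcattgctg
Gabrr1 (chr4:33157075-33157103, plus strand): gatgtgcaacatGGACTtcagcaggtttc
Gabrr2 (chr4:33082294-33082322, plus strand): catgtgcaacatGGACTtcagccactttc
Aligned on the motif, the 3 alpha windows were identical at 23 of 29 bases, including an unbroken run of 14 bases around the motif, and the rho windows at 25 of 29. Among these alpha genes, Gabra2 and Gabra3 passed the filter on low counts and Gabra5 did not. The next windows belong to genes on which the results below turn, as an abundant gene of their class, as one that varied strongly between libraries, or as one whose genotypes did not overlap.
Gria2 (chr3:80692446-80692474, minus strand): ctgtgtttgtgaGGACTacggcagaagga
Grik3 (chr4:125656331-125656359, plus strand): ccagtggcttgcGGACTgattttgatctg
Grin2c (chr11:115249772-115249800, minus strand): cgttctgctgggGGACTgtctgccgtcac
Grm5 (chr7:88130737-88130765, plus strand): cagGGACTcggtGGACTcggggagcacca
Grm3 (chr5:9485776-9485804, minus strand): aagggaagtcctGGACTccaccacctcat
Gabbr1 (chr17:37062686-37062714, plus strand): agtgcgcctggaGGACTttaactacaaca
Glrb (chr3:80845100-80845128, minus strand): gaagtcaacaatGGACTtgggaaaccaca
The window of Grm5 holds the motif 2 times. These coding sequences held 4 motifs in Gria2, Grin2c, Grm5 and Gabbr1, and 2 in Grik3, Grm3 and Glrb.

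The 6 libraries held 11029827 to 13185778 counted reads. Ythdf2, counted 840, 961 and 999 times in wild-type and 137, 198 and 138 times in Ythdf2-/- libraries, was lower in every knockout library (log2 fold change -2.66 ± 0.183, SE, edgeR adjusted p = 0.0547). Reads on Y-linked genes were present in 2 wild-type libraries and 1 Ythdf2-/- library. Wild-type replicate 3 stood apart from the rest. Its mean Spearman correlation with the other libraries was 0.8997, against 0.9616 to 0.9698 for each of the other 5, and 11.2% of the 13112 genes tested lay more than 2-fold outside the range of the other 5 libraries, against at most 1.2% for any other library. Progenitor markers such as Nes (264 to 1212 CPM) and Sox2 (316 to 551 CPM) were present in every library. In wild-type replicate 3 the 9 neuronal markers summed to 650 CPM against 96.4 to 132 in the other 5 libraries, the 7 astrocyte markers to 6297 against 1209 to 2381, and the 8 markers of the oligodendrocyte lineage to 4115 against 1638 to 1917. The sum of the 8 progenitor markers was lower there, at 3451 CPM against 4850 to 6546. Nes, Vim and Fabp7 were at their lowest in that library, while Sox2, Pax6, Hes1, Hes5 and Msi1 were at their highest. Microglial markers (0.382 to 1.11 CPM in sum) and endothelial markers (0.814 to 1.62 CPM) were near 0 in all libraries. Mesenchymal markers summed to 32.4 CPM in wild-type replicate 3, of which Pdgfrb gave 31.8, and to 0.666 to 4.26 in the others. The microglial genes C1qa and C1qb and the endothelial gene Cldn5 were at 0 in all 6. Fold changes without this library are given beside many of the receptor genes.

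Of the 52 receptor genes, 30 passed edgeR's filter on low counts, 26 had at least 10 counts in all 6 libraries, and 5 (Gabra6, Gabrp, Gabrr3, Glra2 and Glra3) had no count at all. A total of 0 counts over the 6 libraries allows a level of up to 0.0409 CPM (3 counts), for counting error only. No untested receptor gene exceeded 18 counts in any library. To compare genes, levels were expressed as CPM scaled with TMM factors per kb of the gene length that the authors deposited. On this scale Gria2 had the highest level, with a mean of 69.9 CPM per kb over the 6 libraries. Gabbr1 (38.8), Grm5 (38.5), Grik5 (27.8), Gria4 (23.5), Gabrg1 (20.7) and Glrb (19.1) followed. Between neighbours in this order the library ranges overlapped. The rank of Gria2 depended on the length used, since with the exon length of the RefSeq annotation it was at 34.5 CPM per kb, below Gabbr1 (38.8) and Grm5 (38.1). The level per length of all receptor genes together was 339 ± 74.1 CPM per kb in wild-type and 371 ± 85.4 in Ythdf2-/- libraries (mean ± SD, n = 3 each), a difference smaller than either SD. Wild-type replicate 3 had the highest of the wild-type sums (284, 309 and 423 CPM per kb). Without it the wild-type mean was 297 ± 17.8 (n = 2), still inside the range of the Ythdf2-/- libraries (391, 278 and 445).

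**Figure D1:**
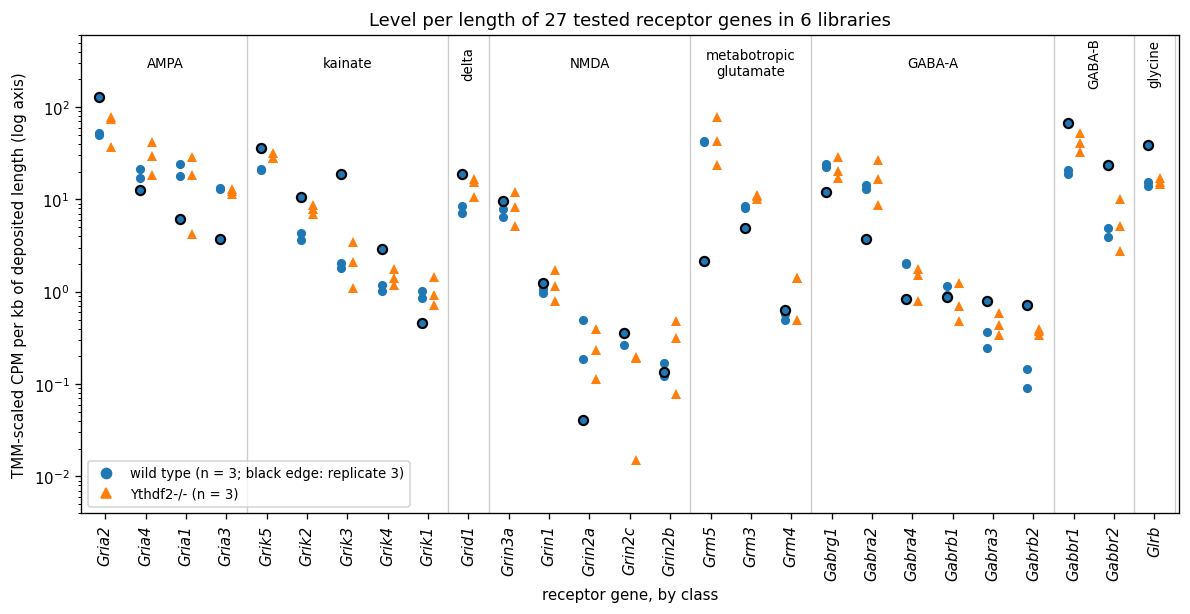
Level per length of 27 tested receptor genes, as TMM-scaled CPM per kb of deposited gene length on a log axis, with 1 point for each library and genes ordered by class. Gria2, Gabbr1, Grm5 and Grik5 lie at the top, and wild-type replicate 3 (black edge) is the highest or lowest point of many genes, such as Grm5 at 18.1 CPM before division by length against 200 to 658 in the other libraries.

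No receptor gene passed an adjusted p of 0.05 in edgeR, in which 0 of 13112 genes (0%) passed and 476 had an unadjusted p under 0.05. DESeq2 called 31 genes, none of them a receptor gene. At an unadjusted p under 0.05, 1 of 30 receptor genes was higher in Ythdf2-/- (1.81% of all genes tested) and 0 were lower (1.82% of all). Genotypes did not overlap in 1 tested receptor gene that was higher in Ythdf2-/- (5.24% of all genes) and 1 that was lower (4.92% of all). Of the 30 fold changes, 20 were above 0 (66.7%, against 48.1% of all genes), with a median of 0.17 on the log2 scale against -0.01 for all genes. In these bulk samples, fewer cells of a type and less RNA per cell cannot be told apart.

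AMPA receptors carry most fast excitatory transmission, and all 4 subunit genes were tested. Gria2 (chr3:80681450-80804227, minus strand) encodes the subunit whose edited form makes the channel impermeable to calcium. It measured 277, 291 and 711 CPM in wild-type and 416, 206 and 435 CPM in Ythdf2-/- libraries. The genotypes overlapped, and the highest value was that of wild-type replicate 3 (log2 fold change -0.28 ± 0.467, SE, unadjusted p = 0.576). Without this library the fold change was 0.31, in the opposite direction. Gria4, a subunit typical of the developing brain, measured 81.8, 102 and 60.6 CPM in wild-type and 141, 86.4 and 198 CPM in Ythdf2-/- libraries, with 1 knockout library inside the wild-type range (log2 fold change 0.80 ± 0.339, unadjusted p = 0.0536). Gria1 was low in 2 libraries, at 35.2 CPM in wild-type replicate 3 and 24.1 in Ythdf2-/- replicate 2, against 102 to 163 in the remaining 4. Gria3 was at 17.2 CPM in wild-type replicate 3 and at 53.0 to 61.5 in the other 5. Without that library the log2 fold changes of Gria1 and Gria3 went from 0.09 to -0.30 and from 0.28 to -0.11, and that of Gria4 was 0.63.

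Because the subunits assemble with each other, each was also expressed as a share of the summed level per length of its class. Gria2 made up 50.6%, 47.1% and 84.9% of the AMPA receptor level in the wild-type and 55.5%, 51.2% and 48.6% in the Ythdf2-/- libraries. Outside wild-type replicate 3 its share thus varied less than its CPM, which ranged from 206 to 435. The share of Gria4 was 15.1% ± 5.8 in wild-type and 24.4% ± 2.0 in Ythdf2-/- libraries (SD, n = 3 each, exact permutation p = 0.1, adjusted p = 0.483 over 29 shares), and the genotypes did not overlap. With 3 against 3 libraries this two-sided test cannot go below 0.1, and 6 of the 29 shares reached that value. Shares within a class depend on each other, and the 6 include both GABA-B genes, whose shares mirror each other.

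Kainate receptors modulate transmission before and after the synapse. Grik5, which encodes a high-affinity subunit that needs a partner to form a channel, led this class with 68.0% of its level per length on average. It measured 80.4, 82.1 and 139 CPM in wild-type and 107, 121 and 109 CPM in Ythdf2-/- libraries. Grik2, the main channel-forming partner, measured 17.5, 21 and 51.1 CPM in wild-type and 41.4, 37.8 and 33.6 CPM in knockout libraries. In both genes wild-type replicates 1 and 2 were the lowest of the 6 and wild-type replicate 3 the highest, so the genotypes overlapped (edgeR log2 fold change 0.16 ± 0.239 for Grik5, unadjusted p = 0.53, and 0.33 ± 0.413 for Grik2, unadjusted p = 0.449). Without that library the fold change of Grik5 was 0.47 ± 0.0979 (adjusted p = 0.165) and that of Grik2 was 0.96 ± 0.15 (adjusted p = 0.151). Grik3 (chr4:125490259-125714173, plus strand), another channel-forming subunit, was dominated by 1 value. It measured 15.9, 18.1 and 168 CPM in wild-type and 18.6, 30.5 and 9.66 CPM in Ythdf2-/- libraries. Its log2 fold change of -1.78 ± 1.01 (unadjusted p = 0.126) became 0.21 without wild-type replicate 3. Grik4 (3.59 to 10.1 CPM) and Grik1 (1.65 to 5.23 CPM) were minor. The fold change of Grik4 went from -0.22 to 0.40 without wild-type replicate 3.

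Delta receptors organise synapses through secreted ligands, and Grid1 encodes GluD1. It measured 24.5, 29.1 and 64.9 CPM in wild-type and 52.3, 36.0 and 57.0 CPM in Ythdf2-/- libraries, again with wild-type replicates 1 and 2 lowest and replicate 3 highest (log2 fold change 0.29 ± 0.404, unadjusted p = 0.492). Without wild-type replicate 3 its fold change was 0.85 ± 0.218 (adjusted p = 0.191).

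NMDA receptors need the obligatory GluN1 subunit, encoded by Grin1, and admit calcium. Grin3a, whose subunit lowers calcium entry, measured 49.3, 60.9 and 74.0 CPM in wild-type and 63.3, 39.8 and 93.1 CPM in Ythdf2-/- libraries and made up 79.4% ± 4.22 and 79.9% ± 1.27 of the class level per length (SD, n = 3 each). Grin1 ranged from 3.18 to 6.92 CPM, and its share was 10.8% ± 0.307 against 11.6% ± 0.314. It overlaps Grin1os and Lrrc26 on the opposite strand over 1286 exonic bases. The strand setting of the counting is not given in the sources used here, so the count of Grin1 is uncertain. Neither gene separated the genotypes in CPM (log2 fold changes 0.09 ± 0.326 and 0.18 ± 0.345, unadjusted p = 0.79 and 0.623).

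The GluN2 genes, which set the kinetics of NMDA receptors, had at most 45 counts in any library. Grin2c (chr11:115249169-115267297, minus strand) measured 1.80, 1.3 and 1.74 CPM in wild-type and 0.938, 0.074 and 0.966 CPM in Ythdf2-/- libraries. All 3 knockout libraries were below all 3 wild-type libraries, at a log2 fold change of -1.29 ± 0.723 that did not pass the test (unadjusted p = 0.122). Ythdf2-/- replicate 2 held 1 count of this gene, and without it the fold change was -0.74 ± 0.373. Grin2b, the GluN2 gene typical of the embryonic brain, measured 1.28, 0.916 and 1.01 CPM in wild-type and 2.39, 0.592 and 3.62 CPM in Ythdf2-/- libraries, so 1 knockout library was the lowest of all and the other two were the highest (log2 fold change 1.03 ± 0.646, unadjusted p = 0.159). The fold change was 0.47 ± 0.665 without Ythdf2-/- replicate 3, and without Ythdf2-/- replicate 2 it was higher than with all libraries (unadjusted p = 0.0104, adjusted p = 1). Grin2a ranged from 0.183 CPM in wild-type replicate 3 to 2.23 CPM, and its fold change went from 0.04 ± 0.84 to -0.43 ± 0.64 without that library. Grin2d and Grin3b did not pass the filter.

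**Figure D2:**
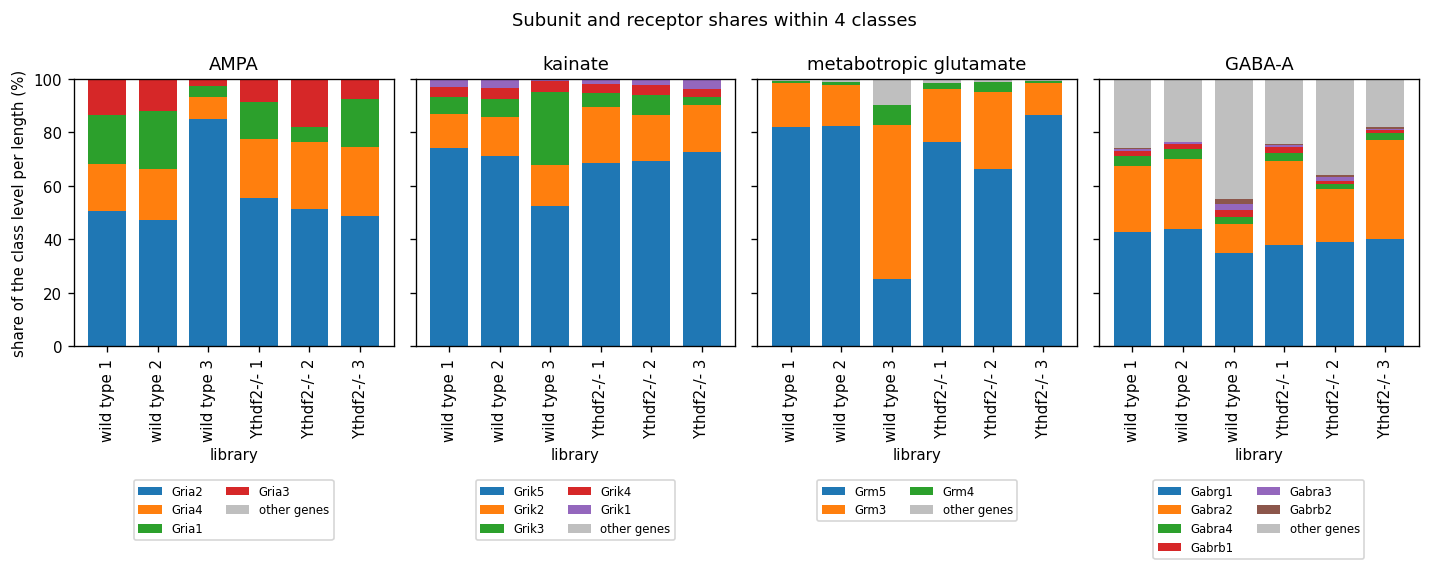
Share of each gene in the summed level per length of its class (%, from 0 to 100), with 1 bar for each of the 3 wild-type and 3 Ythdf2-/- libraries in 4 classes. Genes not shown by name are summed in grey. Gria2 and Grik5 lead their classes in every library, while in wild-type replicate 3 Grm5 drops to 25.1% of its class and Gria2 reaches 84.9%.

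Of the 8 metabotropic glutamate receptor genes, 4 were tested, and Grm5 and Grm3 made up most of the class. Grm5 (chr7:87583981-88135063, plus strand), a receptor coupled to calcium release and long known in progenitors and astroglia, measured 351, 363 and 18.1 CPM in wild-type and 358, 200 and 658 CPM in Ythdf2-/- libraries. Wild-type replicate 3 was at 0.0507 of the median of the other 5 libraries, while the other wild-type values lay inside the knockout range. The log2 fold change was 0.73 ± 0.989 (unadjusted p = 0.486), and 0.18 ± 0.459 without that library. It was 2.37 ± 0.834 with a term for the presence of Y-linked reads (unadjusted p = 0.0319, adjusted p = 0.408) and 1.47 in limma-voom, so its size depended strongly on the fit. Grm5 made up 81.9% and 82.5% of its class in wild-type replicates 1 and 2, 25.1% in replicate 3, and 66.4% to 86.4% in the Ythdf2-/- libraries.

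Grm3 (chr5:9485236-9725352, minus strand), a receptor that lowers cyclic AMP and is common in astroglia, was the 1 tested receptor gene whose knockout libraries all lay above the wild-type libraries. It measured 29.7, 28.4 and 17.5 CPM in wild-type and 38.9, 36.1 and 39.2 CPM in Ythdf2-/- libraries. The knockout values were close to each other and the wild-type spread came mainly from replicate 3. The log2 fold change was 0.59 ± 0.223 (unadjusted p = 0.0355, adjusted p = 0.999), so the difference did not pass the adjusted test. Without wild-type replicate 3 it was 0.39 ± 0.106 (unadjusted p = 0.00967, adjusted p = 0.202). Grm4, presynaptic in mature neurons, measured 1.80, 2.06 and 2.29 CPM in wild-type and 5.12, 5.03 and 1.77 CPM in Ythdf2-/- libraries, and the third knockout library was below all wild-type libraries (log2 fold change 0.95 ± 0.456, unadjusted p = 0.0792). Grm2, Grm6, Grm7 and Grm8 stayed at or under 0.732 CPM in every library.

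GABA-A receptors are usually built of alpha, beta and gamma subunits, and 7 of the 16 genes were tested. Gabrg1, a gamma subunit, measured 107, 115 and 57.5 CPM in wild-type and 96.2, 80.9 and 136 CPM in Ythdf2-/- libraries and made up 39.8% of the class on average. Gabra2, the main alpha subunit in these cells, measured 30.7, 34.5 and 8.88 CPM in wild-type and 40.0, 20.7 and 63.8 CPM in Ythdf2-/- libraries. Both genes were lowest in wild-type replicate 3, and the genotypes overlapped (log2 fold change 0.16 ± 0.318 and 0.75 ± 0.594, unadjusted p = 0.625 and 0.254). Without that library the fold changes were -0.09 and 0.35. Gabrb2, a beta subunit, was highest in wild-type replicate 3, at 5.40 CPM, but at 1.11 and 0.687 CPM in the other wild-type libraries it was below all 3 knockout libraries (2.56 to 2.98 CPM). Its log2 fold change was 0.23 ± 0.754 with all libraries and 1.63 ± 0.359 without replicate 3 (adjusted p = 0.171). Gabra4 and Gabrb1 lie head to head with 238 shared exonic bases on opposite strands, and measured 3.26 to 8.47 and 0.889 to 2.30 CPM. Gabra3 ranged from 0.916 to 2.93 CPM, the highest again in wild-type replicate 3, without which its fold change went from -0.02 to 0.58. Gabra5, Gabrd, Gabre, Gabrg3 and Gabrq were detected in some libraries at no more than 1.01 CPM and did not pass the filter. The rho genes, which form channels of their own in the retina, were represented by Gabrr2 (0 to 1.28 CPM) and traces of Gabrr1 (0 to 0.171 CPM), neither of which passed the filter. With no filter the unadjusted p was 0.279 for Gabrr2 and 0.722 for Gabrr1.

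GABA-B receptors are dimers of the ligand-binding GABBR1 and the G-protein-coupling GABBR2. Gabbr1 (chr17:37045966-37074305, plus strand) measured 85.2, 93.9 and 299 CPM in wild-type and 238, 183 and 146 CPM in Ythdf2-/- libraries. Wild-type replicate 3 was above and the other two were below every knockout library, which gave a log2 fold change of 0.25 ± 0.518 (unadjusted p = 0.649), and of 1.08 ± 0.213 without that library (adjusted p = 0.153). Gabbr2 measured 15.7, 19.8 and 95.1 CPM in wild-type and 40.1, 20.6 and 11 CPM in Ythdf2-/- libraries, and its fold change of -0.86 ± 0.807 turned to 0.43 without wild-type replicate 3. Gabbr1 made up 82.9%, 80.8% and 73.7% of the GABA-B level per length in wild-type and 84.1%, 88.8% and 92.2% in Ythdf2-/- libraries. The genotypes did not overlap in this share (79.1% ± 4.84 against 88.4% ± 4.04, SD, n = 3 each, exact permutation p = 0.1, adjusted p = 0.483).

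The glycine receptor was represented by Glrb, the beta subunit that binds the scaffold gephyrin and forms no channel without an alpha subunit. It measured 42.7, 46.6 and 117 CPM in wild-type and 52.1, 46.4 and 44.2 CPM in Ythdf2-/- libraries, a narrow range but for wild-type replicate 3 (log2 fold change -0.53 ± 0.402, unadjusted p = 0.234, and 0.09 ± 0.115 without that library). Among the alpha subunits, Glra2 and Glra3 had 0 counts and Glra1 had 1 count in all. Glra4 had 3, 3 and 4 counts in wild-type and 0, 1 and 1 in Ythdf2-/- libraries. These did not overlap, but the gene was below the filter, and with no filter its adjusted p was 0.996.

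**Figure D3:**
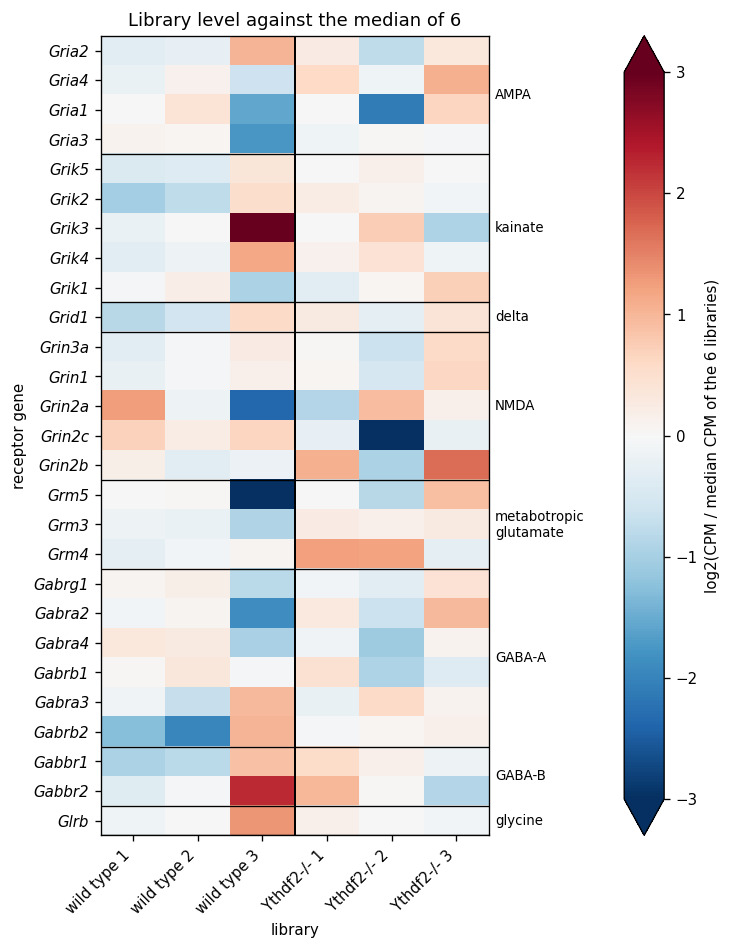
Colour shows log2 of the CPM of 27 tested receptor genes, each over its median of the 6 libraries, with rows grouped by class, 3 wild-type columns on the left and 3 Ythdf2-/- columns on the right, and colours saturating at 3 in either direction. Wild-type replicate 3 holds most of the strong colours, in both directions, such as Grik3 at 168 CPM and Grm5 at 18.1 CPM.

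Most receptor genes that lay far outside the other libraries did so in 1 library. In wild-type replicate 3, Grik3, Gabbr2 and Glrb lay more than 2-fold above the highest of the other 5 libraries, 3 of 30 against 4.16% of all genes tested. Gria3, Grin2a, Grm5 and Gabra2 lay more than 2-fold below the lowest, 4 of 30 against 7.03% of all. Of the other 5 libraries, Ythdf2-/- replicate 2 had 1 such gene, Grin2c, and the rest had none. The neuronal marker Dcx (315 CPM in wild-type replicate 3, 8.36 to 13.1 in the others) and the myelin gene Mbp (573 CPM, against 1.21 to 8.85) also lay above. They thus went the same way as Grik3, Gabbr2 and Glrb and the opposite way to Gria3, Grin2a, Grm5 and Gabra2. Of 8 tested neuronal markers 4 lay more than 2-fold above in that library, as did 4 of 8 of the oligodendrocyte lineage. Cspg4 and Olig1 of the latter list were at their lowest there. The part of these markers in the receptor differences was not tested. Without wild-type replicate 3, 24 of 31 tested receptor genes had a fold change above 0 (77.4%, against 51.7% of all genes), and the median was 0.35 against 0.01 for all genes. Gabrb2, Gabbr1, Grid1, Grik2, Grik5 and Grm3 then had an unadjusted p under 0.05 and were higher in Ythdf2-/-, 6 of 31 against 8.03% of all genes, and none passed an adjusted p of 0.05. The same 6 genes passed an adjusted p of 0.05 in limma-voom with sample quality weights, which gave wild-type replicate 3 a weight of 0.0901. That fit called 2.81% of all genes as higher in Ythdf2-/-. In the unweighted edgeR test over all 6 libraries none of these genes passed an adjusted p of 0.05, and only Grm3 had an unadjusted p under 0.05.

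**Figure D4:**
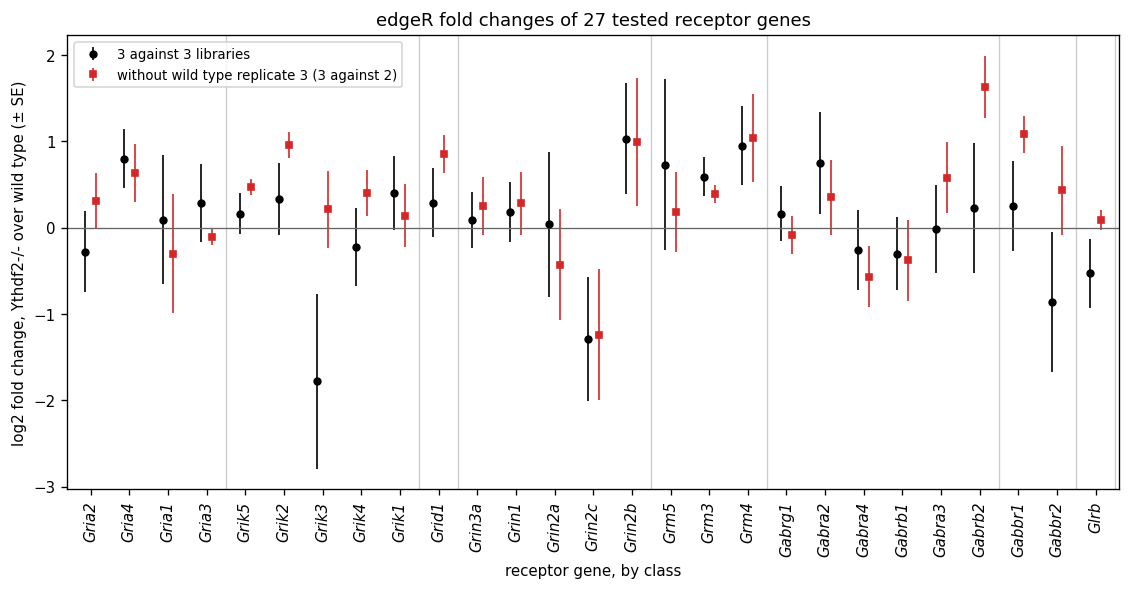
Log2 fold change of Ythdf2-/- over wild type (edgeR, bars are ± 1 SE) for 27 tested receptor genes, with all 6 libraries (black) and without wild-type replicate 3 (red). The estimates of Grik3 (-1.78), Gabbr2 (-0.86) and Gria2 (-0.28) change sign without that library, and those of Grik2, Grid1 and Gabbr1 rise to 0.96, 0.85 and 1.08 with smaller SE.

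Some cell type markers did not overlap between genotypes. Of all genes tested, 5.24% were higher and 4.92% were lower in Ythdf2-/- without overlap. Gfap, the astrocyte intermediate filament, measured 437, 625 and 3046 CPM in wild-type and 127, 87.7 and 5.55 CPM in Ythdf2-/- libraries. Of the 7 astrocyte markers it was the 1 whose genotypes did not overlap, and the summed astrocyte list overlapped (1943 to 6297 against 1209 to 2167 CPM). Among the 8 neuronal markers tested, 1 (Stmn2, at most 1.54 CPM) was lower without overlap, and the summed list ranged from 96.4 to 650 against 104 to 132 CPM. In the 8 markers of the oligodendrocyte lineage, 2 (Cspg4 and Olig1) were above and 2, Mbp among them, below every wild-type library in all knockout libraries. These markers were not set against the receptor genes in a test, so their part in the receptor values was not tested.

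Of 66 other genes of these pathways, in 6 lists of auxiliary subunits, scaffolds, receptor partners, transporters, enzymes and chloride transporters, 54 were tested, 0 passed an adjusted p of 0.05, and at an unadjusted p under 0.05 there were 0 higher and 1 lower in Ythdf2-/-, against 1.81% and 1.82% of all genes. The median log2 fold change of the 54 was 0.07, against -0.01 for all genes. The 1 gene was Cnih3, an AMPA receptor auxiliary subunit, at 3.68, 3.05 and 7.96 CPM in wild-type and 2.47, 2.37 and 2.25 CPM in Ythdf2-/- libraries (log2 fold change -1.04 ± 0.425, unadjusted p = 0.0472, adjusted p = 0.999). Its wild-type mean was raised by replicate 3, though every knockout value was below every wild-type value. The auxiliary subunit with the highest CPM was Neto2, a kainate receptor partner, at 92.1 to 217 CPM in wild-type and 162 to 258 in Ythdf2-/- libraries. Among 18 scaffold genes, 16 were tested and Dlgap4 had the highest CPM (90.6 to 131 against 90 to 106 CPM).

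None of the 9 tested transporter genes, 9 genes of transmitter synthesis and breakdown, 6 receptor partners or 2 chloride transporters had an unadjusted p under 0.05. Slc1a3, the glial glutamate transporter GLAST, measured 2289, 2552 and 1872 CPM in wild-type and 3345, 1407 and 3743 CPM in Ythdf2-/- libraries, with the lowest and the highest values both in knockout libraries (log2 fold change 0.34 ± 0.39, unadjusted p = 0.415). The vesicular transporter genes Slc17a6 and Slc32a1, which mark glutamatergic and inhibitory neurons, had 0 and 1 counts in all 6 libraries. Glud1, glutamate dehydrogenase, led the genes of synthesis and breakdown at 830 to 1636 CPM in wild-type and 931 to 1629 in Ythdf2-/- libraries. Gabarap, a GABA-A receptor trafficking protein with a role in autophagy, ranged from 266 to 353 and from 220 to 346 CPM. Slc12a2, which loads immature cells with chloride, measured 108, 110 and 123 CPM in wild-type and 101, 98.7 and 107 CPM in Ythdf2-/- libraries, apart but close (log2 fold change -0.16 ± 0.115, unadjusted p = 0.211). Its mature counterpart Slc12a5 was at 1.92 to 3 CPM.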

How the data were processed

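RNA-seq was measured in 3 wild-type and 3 Ythdf2-/- input libraries, grouped by their labels, and 6 m6A-IP samples were not analysed here. The authors fragmented mRNA by sonication, used a stranded kit and TopHat for alignment (mm10). The deposited raw counts are whole reads per gene, not normalized by the authors. Their second deposited table holds expected counts with gene lengths (RSEM columns, of which only the lengths were used) and TPM and FPKM, not used here. The submitters' processing notes name Bowtie2 2.2.9, RSEM 1.2.15 and featureCounts without roles. Counts were normalized with TMM (factors 0.988 to 1.03), and the 13112 genes passing filterByExpr were tested with edgeR 4.0.16 (glmQLFit, robust, glmQLFTest, genotype only, Benjamini-Hochberg over all genes) in R 4.3.3, after a check on simulated data. DESeq2 1.42.0, limma 3.58.1 (voom), other filters and left-out libraries were alternatives. Shares used exact permutation tests (scipy 1.17.1). SE is the log2 fold change over the root of F. Named receptor genes were the 2 highest per length in each class, those at an unadjusted p under 0.05, those without genotype overlap and those with an absolute log2 fold change of at least 1. Of the other genes, the most abundant of each list and those at an unadjusted p under 0.05 were named. Further genes of a class, and Dcx, Gfap, Stmn2, Cspg4, Olig1 and Mbp, were named after their values were seen. Some genes counted here are not reported by name. Receptor genes and lists were chosen with earlier results of these data known.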

Additional observations from a re-analysis of the deposited data

How the results depend on the processing

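The count of receptor genes at an adjusted p under 0.05 was 0 under 13 of 14 alternatives and 6 in limma-voom with sample quality weights. At an unadjusted p under 0.05 the count of 1 of 30 (3.63% of all genes) became 3 with DESeq2 (4.27% of all), 9 with sample quality weights (29.8%), 3 of 47 with no filter (3.35%) and 8 once the presence of Y-linked reads was a covariate (11%). With each library left out in turn it ranged from 0 (1.85% of all, without Ythdf2-/- replicate 1) to 6 of 31 (16.6%, without wild-type replicate 3). Tested receptor genes with genotypes apart went from 2 (10.2% of all genes) to 1 of 26 with at least 10 counts in every library (10.1%). They ranged from 2 of 31 without wild-type replicate 1 (14.6%) to 10 of 31 without wild-type replicate 3 (38.9%), and were 8 of 31 without Ythdf2-/- replicate 2 (22.1%) and 4 of 30 without Ythdf2-/- replicate 1 (15.3%). The median log2 fold change ranged from 0.07 to 0.35 over these, the highest without wild-type replicate 3. The labels do not say whether the replicate numbers pair the samples. Deviations of same-numbered libraries from their genotype means correlated at -0.248, -0.244 and -0.394. With 3 libraries per genotype these values cannot decide it. With a replicate block, 0 receptor genes passed at either p (1.4% of all genes at the unadjusted p), and the median was 0.27.

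Of 236 fold changes of 17 named receptor genes under the alternatives, 215 kept their direction and their side of the adjusted threshold. With sample quality weights, Gria2 (0.43), Gabrg1 (-0.13), Gabbr2 (0.62) and Glrb (0.13) changed sign. With each library left out in turn, the sign changed within the range for Gria2 (-0.51 to 0.31), Grin3a (-0.25 to 0.36), Grin1 (-0.15 to 0.43), Gabrg1 (-0.09 to 0.34), Gabbr1 (-0.05 to 1.08), Gabbr2 (-1.44 to 0.43), Glrb (-0.78 to 0.09) and Grik3 (-2.24 to 0.21), and the values in the new direction for Gria2, Gabrg1, Gabbr2, Glrb and Grik3 included that without wild-type replicate 3. Grm5 kept its direction but ranged from 0.15 with sample quality weights to 2.37 with the Y-linked covariate. The cause was not tested. With annotation lengths in place of deposited ones, the leading gene of all 7 classes compared was unchanged, while 10 of 29 shares moved by more than 1 SD. Depth limits the genes under about 10 counts, such as Grin2d.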
